A study of Mus musculus with 6 samples.

Results

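The genes followed here, 10 in number, belong to insulin and insulin-like growth factor (IGF) signalling and were measured in mouse 3T3-L1 pre-adipocytes, an embryonic fibroblast line that can be induced to become fat cells. They are the hormone Igf1, the receptors Insr and Igf1r, the adaptors Irs1 and Irs2, and the binding proteins Igfbp3, Igfbp4, Igfbp5, Igfbp6 and Igfbp7. They were chosen by symbol, and all 10 were found among 37315 gene entries, of which 35449 carried a symbol. RNA sequencing had been done on 6 libraries in 4 groups. METTL3 knockdown cells (2 libraries) were set against METTL3 control cells (2 libraries), both read in single-read mode. FTO knockdown cells (1 library) were set against FTO control cells (1 library), both read in paired-end mode. METTL3 is the catalytic subunit of the complex that adds N6-methyladenosine (m6A) to mRNA, and FTO is a demethylase that takes such groups off. All 4 groups were transient transfections, per the protocols in the labels; column names carry an si prefix for the knockdowns, and what the control cells received is not stated. The labels do not say whether replicate libraries came from separate cultures, so the p-values below measure only the spread between these libraries, which may be technical.

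Insulin and IGF1 bind receptor tyrosine kinases, INSR and IGF1R, which phosphorylate the IRS adaptor proteins and so turn on phosphatidylinositol 3-kinase (PI3K), AKT and the growth pathway of mTORC1. Secreted IGF-binding proteins hold IGFs in the medium and matrix and can block or prolong their action. In culture, insulin or IGF1 is part of the hormonal signal that starts fat cell formation in pre-adipocytes.

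The libraries held 28348179 to 44580722 counted reads. Mettl3 stood at 7.68 and 6.55 CPM (read counts relative to library size, scaled by the TMM method within each experiment) in METTL3 knockdown cells and at 25.1 and 28.9 CPM in METTL3 control cells. Fto stood at 49.6 CPM in FTO knockdown cells and 154.5 CPM in the FTO control. Fibroblast and pre-adipocyte markers summed to 12180 to 28660 CPM per library; 9 of the 10 were high in all libraries, while Lum had 0 to 61 reads. Of 8 adipocyte markers, 7 were below 1 CPM in all libraries, and Fabp4 made up nearly all of the summed 16.1 to 47.0 CPM. Among 6 macrophage markers Ptprc and Adgre1 had 0 or 1 reads per library, while Csf1r had 121 to 266, Cd68 75 to 172 and Lyz2 15 to 74. Of these 6, 3 were below 1 CPM in all libraries. All 5 endothelial markers were below 1 CPM in all libraries, and 1 of them, Tie1, had 0 reads in every library.

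The following sequences show the stretches before the RefSeq start sites (250 bases, GRCm38.p6, the gene's own strand, 5′ to 3′) of Igfbp6, Igfbp4 and Irs2, the genes with the highest METTL3 knockdown to control ratios. Capitals mark matches, on either strand, to the TATAAA box, the CCAAT box, the GC box (GGGCGG), the E-box (CACGTG) or a forkhead core (GTAAACA). The first lies at chr15:102143936-102144185 (+ strand), the second at chr11:99040994-99041243 (+ strand) and the third at chr8:11008930-11009179 (- strand).
Igfbp6: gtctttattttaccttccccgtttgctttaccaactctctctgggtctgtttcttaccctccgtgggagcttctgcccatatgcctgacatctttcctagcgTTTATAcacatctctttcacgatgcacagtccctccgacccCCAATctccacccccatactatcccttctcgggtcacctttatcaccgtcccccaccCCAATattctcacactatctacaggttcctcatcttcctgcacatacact
Igfbp4: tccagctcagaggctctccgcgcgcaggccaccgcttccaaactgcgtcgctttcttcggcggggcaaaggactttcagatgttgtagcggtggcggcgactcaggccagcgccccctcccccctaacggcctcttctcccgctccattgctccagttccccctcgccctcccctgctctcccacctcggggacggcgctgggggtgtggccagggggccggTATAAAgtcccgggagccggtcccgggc
Irs2: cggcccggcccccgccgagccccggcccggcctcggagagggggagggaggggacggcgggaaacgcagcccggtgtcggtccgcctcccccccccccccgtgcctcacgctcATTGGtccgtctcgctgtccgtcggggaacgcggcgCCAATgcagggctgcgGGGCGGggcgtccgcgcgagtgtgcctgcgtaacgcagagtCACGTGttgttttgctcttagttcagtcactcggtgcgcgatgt
Igfbp6 had 1 TATAAA match, on the reverse strand, and 2 CCAAT matches. Igfbp4 had 1 TATAAA match close to its start site. Irs2 had 2 CCAAT matches, 1 GGGCGG and 1 CACGTG match, and no TATAAA match. No printed match overlapped another. Among 32851 mouse promoter stretches of the same length, 12.4% held TATAAA, 33.8% CCAAT, 32.7% GGGCGG and 6.02% CACGTG. The forkhead core, bound by FOXO factors, was in 3.17% of them and in 0 of the 9 members with a promoter sequence. CpG pairs numbered 7 in the Igfbp6 stretch, 22 in that of Igfbp4 and 34 in that of Irs2, against a median of 6.

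METTL3 methylates adenosine within a short consensus, often near stop codons, and its best-known form is GGACT in DNA letters. The 21-base stretches below (GENCODE M21 transcripts, GRCm38, 5′ to 3′) show, with GGACT in capitals, the match nearest to the end of the coding part in 5 members. The Igfbp6 site lies at chr15:102144783-102144803 (+ strand), that of Igfbp4 at chr11:99051590-99051610 (+ strand), that of Irs2 at chr8:10986424-10986444 (- strand), that of Igfbp7 at chr5:77407960-77407980 (- strand) and that of Insr at chr8:3155566-3155586 (- strand).
Igfbp6: gcgccccaGGACTgcagtgcc
Igfbp4: caggtgggGGACTcagtgccc
Irs2: gtcgatgtGGACTccagtcca
Igfbp7: gtgcagccGGACTgctgctcc
Insr: gattatcaGGACTctgcccag
The Igfbp6 and Igfbp7 matches are in the coding part, and those of Igfbp4, Irs2 and Insr in the 3′ untranslated region, starting 22, 577 and 94 bases after the last coding base. In Igfbp4, Igfbp5 and Insr, 3 of the 10 members, GGACT was found within 100 bases of the end of the coding part, as it was in 24.9% of 11732 tested genes with a full window of 200 bases. Matches per kilobase of transcript, on the sense strand, were highest in Igfbp6 (2.70) and lowest in Igfbp3 (0.413), against a median of 1.06 over 12527 tested protein-coding genes. These matches are letters in the reference only, since methylation was not measured here.

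Between genes, levels were compared by the deposited RPKM values (reads per kilobase of gene, scaled to the library's reads), because these take length into account. Igfbp7, a secreted protein of the matrix with low affinity for IGFs, was the highest member in all 6 libraries. Its level was 320.6 and 548 RPKM in METTL3 knockdown cells and 431 and 767 RPKM in METTL3 control cells. It was 266 RPKM in FTO knockdown cells and 326 RPKM in the FTO control. By rank it stood between the 39th and 152nd of all gene entries. Igfbp6, which prefers IGF2 over IGF1, came second in the 4 METTL3 libraries, with 57.7 ± 6.45 RPKM in METTL3 knockdown cells and 23.6 ± 5.42 RPKM in METTL3 control cells (SD, n = 2 each). Igfbp4, a soluble inhibitor of IGF action, and Irs2 followed without a fixed order. Igfbp4 held 19.1 ± 9.26 and Irs2 16.05 ± 1.33 RPKM in METTL3 knockdown cells, against 9.30 ± 6.99 and 11.4 ± 1.79 RPKM in METTL3 control cells (SD, n = 2 each), so these neighbours did not differ beyond their spread. Below them stood Igf1r, Insr, Irs1, Igfbp3 and Igf1 in every METTL3 library, apart from Igfbp4 dropping under Insr in METTL3 control replicate 2. In the FTO libraries Igf1r came second, at 18.3 RPKM in FTO knockdown cells and 17.7 RPKM in the FTO control. Igfbp5, a matrix-bound binding protein, was last in all 6 libraries, with 1 to 4 reads in each.

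**Figure D1:**
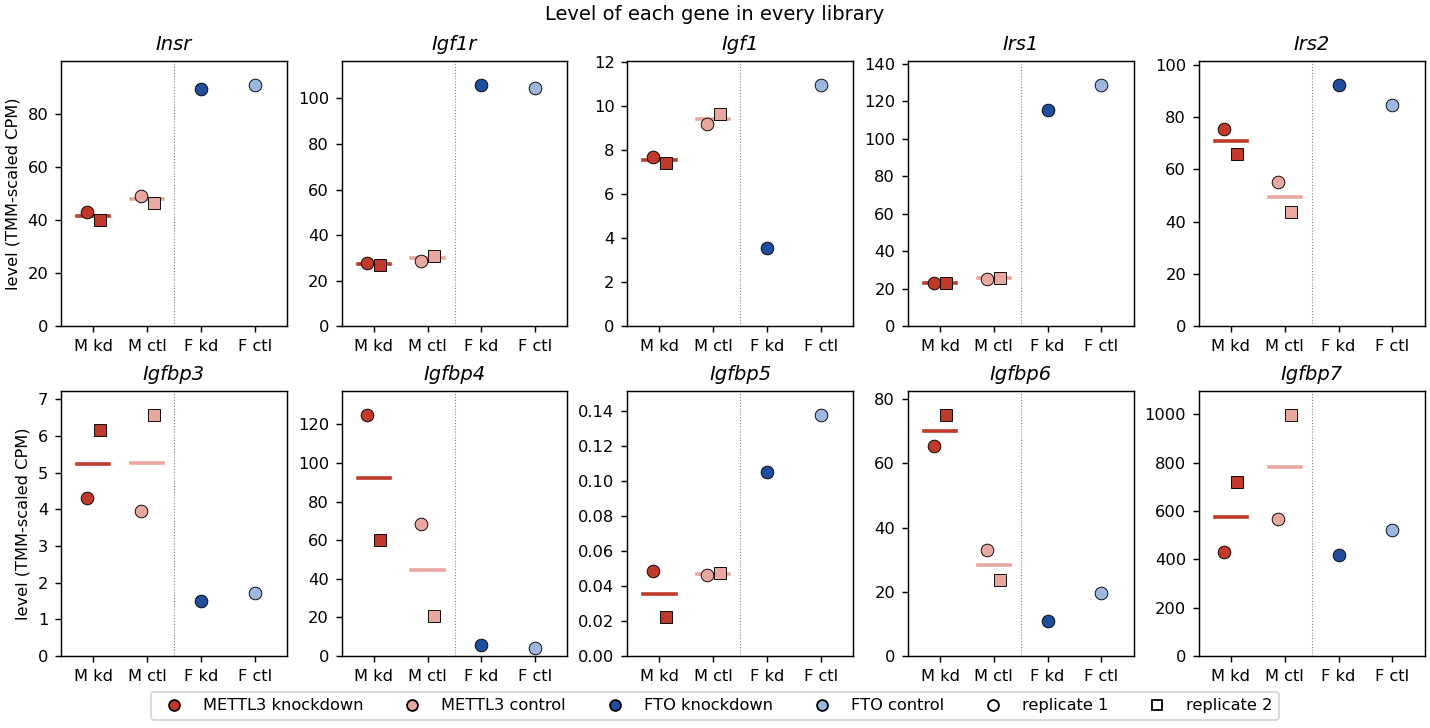
Level of each member in TMM-scaled CPM (vertical axes from 0, a scale of their own per gene; M, METTL3 experiment; F, FTO experiment; kd, knockdown; ctl, control); circles are replicate 1, squares replicate 2, and lines the means of 2 libraries. Igfbp6 in METTL3 knockdown cells (65.2 and 75.0 CPM) sits above its controls (33.2 and 23.6 CPM), and Igf1 in FTO knockdown cells (3.58 CPM) below its control (10.96 CPM); scaling was done within each experiment.

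The METTL3 comparison asks which transcripts differ when METTL3 is depleted. By edgeR's quasi-likelihood test with Benjamini-Hochberg adjustment over 13697 genes, 0 of the 9 members tested passed an adjusted p of 0.05, where 0.0146% of all genes passed. The same test did not call Mettl3 itself (log2 fold change -1.92, SE 0.155, edgeR adjusted p = 0.161), while DESeq2 did (adjusted p = 2.91e-18). Not passing is therefore no sign that a gene was unchanged. Igfbp5 was too low to be tested. At an unadjusted p under 0.05, 2 of the 9 (Igfbp6 and Irs2, both higher) were found, against 11.5% of all genes and 6.35% that were higher. DESeq2 called 1 of the 9 (Igfbp6), against 1.78% of all genes with an adjusted p, limma voom called 0, and edgeR without a low-count filter called 1 of 10 (Igfbp6), against 0.520% of 21339 genes. Libraries of both groups did not overlap in 6 of the 9 members, against 43.0% of all genes: Irs2 and Igfbp6 were higher (21.0% of all genes) and Insr, Igf1r, Igf1 and Irs1 lower (22.0%). Past 2-fold were 2 of the 9 (Igfbp4 and Igfbp6), against 2.31% of all genes. The median log2 fold change of the 9 members was -0.12, knockdown over control, with 3 above and 6 below 0. Over all genes the median was 0.0026, and 50.5% were above 0. In bulk RNA, fewer cells of a type and less RNA per cell cannot be told apart.

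Igf1, the main IGF ligand after birth, was weakly expressed. It stood at 7.71 and 7.41 CPM in METTL3 knockdown cells and at 9.19 and 9.63 CPM in METTL3 control cells. Both knockdown libraries lay below both controls, with a log2 fold change of -0.32 (SE 0.14) that did not pass (edgeR adjusted p = 0.480). Among the other ligands, Ins1 had 0 reads in every library, and a limit of 3 reads, for counting error only, is 0.0673 to 0.106 CPM depending on the library. Igf2, the fetal growth factor, stood at 9.23 and 3.49 CPM in METTL3 knockdown cells and at 4.67 and 1.83 CPM in METTL3 control cells, and its groups overlapped (log2 fold change 0.97, SE 0.61, edgeR adjusted p = 0.612).

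Both receptors and Irs1 were slightly lower in METTL3 knockdown cells, without passing the test. Insr, the insulin receptor (ENSMUSG00000005534), stood at 42.9 and 40 CPM in METTL3 knockdown cells and at 49.2 and 46.3 CPM in METTL3 control cells. Its groups did not overlap, and the log2 fold change was -0.20 (SE 0.10, edgeR adjusted p = 0.517). Igf1r, the IGF1 receptor (ENSMUSG00000005533), stood at 28.0 and 26.9 CPM in METTL3 knockdown cells and at 28.7 and 30.9 CPM in METTL3 control cells. This difference was the smaller one (-0.12, SE 0.11, edgeR adjusted p = 0.720), although the groups again did not overlap. Irs1 was at 22.95 and 22.98 CPM in METTL3 knockdown cells and at 25.2 and 25.95 CPM in METTL3 control cells (-0.15, SE 0.10, edgeR adjusted p = 0.638). Igf2r, which carries IGF2 and lysosomal enzymes to lysosomes and has no kinase, ranged more between replicates than between groups, at 697 and 480.5 CPM in METTL3 knockdown cells and 646 and 444.5 CPM in METTL3 control cells.

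Irs2, the adaptor through which insulin acts in many tissues (ENSMUSG00000038894), went the other way. It stood at 75.4 and 65.8 CPM in METTL3 knockdown cells and at 55.3 and 43.7 CPM in METTL3 control cells, with no overlap. The log2 fold change was 0.51 (SE 0.15, a fold of 1.43), with an unadjusted p = 0.0165 that did not pass after adjustment (edgeR adjusted p = 0.351; DESeq2 adjusted p = 0.185). With the library number, which the labels do not explain, also fitted, edgeR gave 0.519 (SE 0.0703, adjusted p = 1.5e-09). That fit called 3706 of 13697 genes. Per length, Irs2 exceeded Irs1 by 7.47 and 6.51 times in METTL3 knockdown cells and by 4.99 and 3.83 times in METTL3 control cells. In the FTO experiment the ratio was lower, at 1.81 in FTO knockdown cells and 1.5 in the FTO control.

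Igfbp6 (ENSMUSG00000023046, GRCm38 chromosome 15, 102144362 to 102149511) had the largest log2 fold change among the members. It stood at 65.2 and 75.0 CPM in METTL3 knockdown cells and at 33.2 and 23.6 CPM in METTL3 control cells. All knockdown values lay above all control values, and the gap between the groups was wider than the spread within either. The fold was 2.47 (log2 fold change 1.31, SE 0.19, unadjusted p = 0.000694), which missed the threshold by edgeR over all genes (adjusted p = 0.209) and by limma voom. DESeq2 called it higher (adjusted p = 1.09e-06), and so did edgeR when low genes were kept (adjusted p = 0.0198) or when METTL3 knockdown replicate 1 was left out (adjusted p = 0.0208). Over all alternatives its adjusted p ran from 1.09e-06 to 0.426 and its log2 fold change from 1.08 to 1.57.

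The other binding proteins differed as much between library numbers as between groups. Igfbp4 (ENSMUSG00000017493) stood at 125 and 60.0 CPM in METTL3 knockdown cells and at 68.3 and 20.6 CPM in METTL3 control cells, so the groups overlapped. Its log2 fold change was 1.06 (SE 0.62, edgeR adjusted p = 0.580), and it was 2.16 without METTL3 control replicate 1 and 0.43 when METTL3 control replicate 2, or else METTL3 knockdown replicate 1, was left out. In both groups the library numbered 2 was the lower one, by 1.05 on the log2 scale (CPM plus 1) in METTL3 knockdown cells and 1.68 in METTL3 control cells. Leaving out 1 library therefore unbalances the library numbers. Between libraries of the same number, Igfbp4 was higher in knockdown by 0.862 and 1.5 on that scale. Igfbp7 (ENSMUSG00000036256) showed the reverse order of libraries, with 429 and 720.3 CPM in METTL3 knockdown cells and 568 and 998 CPM in METTL3 control cells. Its log2 fold change of -0.45 (SE 0.35, edgeR adjusted p = 0.690) was 0.01 without METTL3 control replicate 2. Leaving out that library unbalances the library numbers, between which Igfbp7 differed by 0.746 (knockdown) and 0.812 (control) on the same log2 scale. Knockdown over control of the same library number was -0.404 and -0.47 on that scale. When edgeR also fitted the library number, which the labels do not explain, Igfbp7 was at -0.438 (SE 0.0637, adjusted p = 1.52e-08). Igfbp4 was at 1.18 in the same edgeR fit (SE 0.225, adjusted p = 0.0797). That fit called 3706 of 13697 genes and 5 of the 9 members, against 2 genes without the library number. Igfbp3, the main carrier of IGFs in blood, was at 4.31 and 6.15 CPM in METTL3 knockdown cells and at 3.95 and 6.57 CPM in METTL3 control cells, with a log2 fold change near 0 (-0.01, SE 0.31, edgeR adjusted p = 0.997).

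Marker lists were set side by side between the METTL3 groups too. Groups did not overlap in 43.0% of all genes, 21.0% higher and 22.0% lower in METTL3 knockdown cells. Markers without overlap are therefore no sign by themselves of a change in cell types. The 6 macrophage markers summed to 10.1 and 11.5 CPM in METTL3 knockdown cells and 7.72 and 7.66 CPM in METTL3 control cells, with 2 of the 6 higher without overlap. The 8 adipocyte markers summed to 16.1 and 17.7 CPM in METTL3 knockdown cells and 22.4 and 22.4 CPM in METTL3 control cells, with 3 of the 8 lower and 1 higher without overlap. The 10 fibroblast and pre-adipocyte markers summed to 27740.0 and 26080.0 CPM in METTL3 knockdown cells and 28660.0 and 28490.0 CPM in METTL3 control cells, with 3 of the 10 lower and 2 higher without overlap. Pdgfra, a receptor of fibroblast progenitors, was among the lower ones, at 718 and 572 CPM in METTL3 knockdown cells and 921 and 855 CPM in METTL3 control cells. The part of these marker differences in the members' METTL3 differences was not tested.

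Differences between replicates 2 and 1 correlated between the METTL3 groups across 13697 genes (r = 0.741). A direction shared by both groups is therefore not particular to any marker list. Markers of smooth muscle moved with the library numbers too. Their sum was 636 and 1252 CPM in METTL3 knockdown cells and 655 and 1720.0 CPM in METTL3 control cells, and 3 of the 5 markers were higher in the library numbered 2 of both groups. Acta2, smooth muscle actin, which fibroblasts also express in culture, made up most of it (601 and 1181 CPM in METTL3 knockdown cells, 614 and 1584 CPM in METTL3 control cells), while 2 of the 5 markers were below 1 CPM in all libraries. The part of these cells or of this state in the Igfbp4, Igfbp7 and Igfbp3 differences was not tested.

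**Figure D2:**
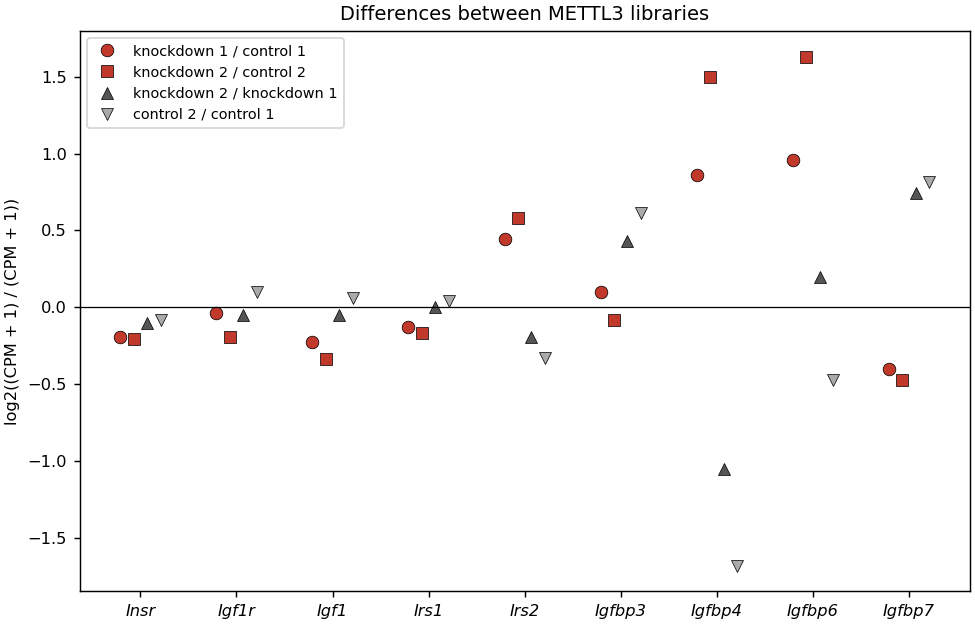
Log2 ratio of CPM plus 1 (vertical axis) for the 9 members above the count filter, knockdown over control of the same library number (red) and replicate 2 over replicate 1 within METTL3 knockdown (dark grey) and METTL3 control cells (light grey). Igfbp6 shows 0.96 and 1.63 for knockdown over control, and Igfbp4 shows -1.05 and -1.68 between replicates; the library number has no meaning stated in the labels.

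With 1 library per group, the FTO comparison has no replicate check and no test. Differences are given as log2((CPM + 1)/(CPM + 1)), knockdown over control, and as plain CPM ratios with exact 95% intervals that cover counting error only. Of the 9 members with at least 50 reads in either library, 1 was past 2-fold (Igf1, lower), where 1.12% of 11432 genes were past 2-fold and 0.744% were lower by that much. Between METTL3 replicates, which show the spread of like libraries in the other experiment, 0.408% of genes passed 2-fold in METTL3 knockdown cells and 0.666% in METTL3 control cells. The median log2 ratio of the 9 members was -0.12, with 3 above and 6 below 0, and that of all genes was 0.00032.

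Igf1 (ENSMUSG00000020053, GRCm38 chromosome 10, 87858265 to 87937042) was counted 102 times in FTO knockdown cells and 318 times in the FTO control. This is 3.58 CPM (95% interval 2.92 to 4.34) in FTO knockdown cells and 10.96 CPM (9.79 to 12.2) in the FTO control. The ratio was 0.327 (0.259 to 0.409) and the log2 ratio -1.39. The 2 replicates of each METTL3 group differed in Igf1 by at most 0.06 on the same log2 scale. On the deposited RPKM with a pseudocount of 1 RPKM, which changes both the values and the pseudocount, the log2 ratio was -0.52; Igf1 lies below 1 RPKM in both FTO libraries.

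Igfbp6 was lower in FTO knockdown cells, the opposite direction to METTL3 knockdown. It was counted 309 times (10.8 CPM, 9.66 to 12.1) in FTO knockdown cells and 574 times (19.8 CPM, 18.2 to 21.5) in the FTO control, a ratio of 0.548 (0.476 to 0.630). Its log2 ratio of -0.81 did not reach 2-fold, and it was larger than the 0.47 by which the METTL3 control replicates differed. Whether METTL3 and FTO knockdown differ in their effect on Igfbp6 was not tested. Igfbp7 had 416 CPM in FTO knockdown cells and 520.4 CPM in the FTO control, a ratio of 0.800 (0.781 to 0.819), and its log2 ratio of -0.32 was smaller in size than the 0.746 and 0.812 between replicates of METTL3 knockdown and METTL3 control cells. Igfbp4 was low in this experiment, at 5.79 CPM in FTO knockdown cells and 4.38 CPM in the FTO control, and Igfbp3 had 43 reads in FTO knockdown cells and 50 in the FTO control.

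The receptors stayed within counting error in the FTO comparison. Insr had 89.5 CPM in FTO knockdown cells and 90.7 CPM in the FTO control, with a ratio of 0.986 (0.933 to 1.04). Igf1r had 106 CPM in FTO knockdown cells and 105 CPM in the FTO control, with a ratio of 1.01 (0.960 to 1.06). The adaptors differed by little more, Irs1 with 115.5 CPM in FTO knockdown cells and 128.5 CPM in the FTO control (ratio 0.899, 0.858 to 0.943), and Irs2 with 92.1 CPM in FTO knockdown cells and 84.7 CPM in the FTO control (ratio 1.09, 1.03 to 1.15). As in the METTL3 comparison, Irs1 was on the lower and Irs2 on the higher side.

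Other genes of fibroblasts were lower in FTO knockdown cells too. Of the 10 fibroblast and pre-adipocyte markers 9 were lower, and their sum was 12180 CPM in FTO knockdown cells and 16200 CPM in the FTO control. Among them Pdgfra stood at 253 CPM in FTO knockdown cells and 505.5 CPM in the FTO control, and Col1a1 at 1158 CPM in FTO knockdown cells and 2109 CPM in the FTO control. The part of this shift in the Igf1 and Igfbp6 differences was not tested.

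**Figure D3:**
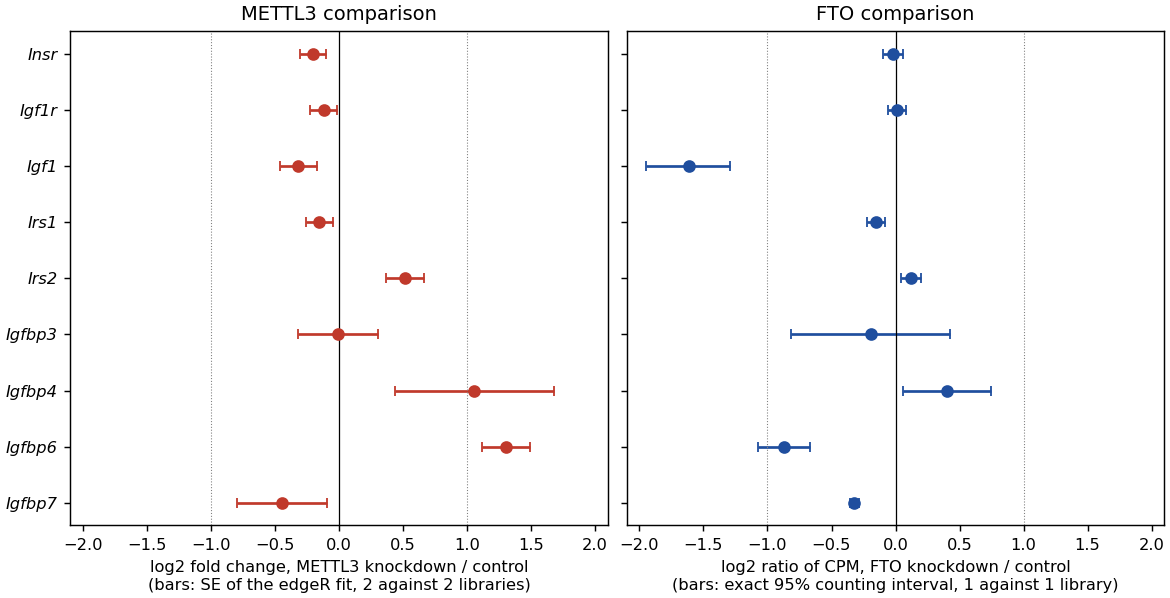
Left, log2 fold change of METTL3 knockdown over control with the SE of the edgeR fit (2 against 2 libraries); right, log2 ratio of CPM of FTO knockdown over control with its exact 95% counting interval (1 against 1 library); dotted lines mark 2-fold. Igfbp6 lies at 1.31 in the METTL3 comparison and Igf1 has the lowest FTO ratio, 0.327; the bars of both panels are of different kinds.

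The binding proteins together were dominated by Igfbp7. It took 80.0% and 87.7% of the summed RPKM of the 5 binding proteins in METTL3 knockdown cells and 91.0% and 96.7% in METTL3 control cells. In the FTO experiment it took 96.7% in FTO knockdown cells and 95.7% in the FTO control. Without Igfbp7 the sum was 80.1 and 76.7 RPKM in METTL3 knockdown cells and 42.9 and 26.1 RPKM in METTL3 control cells, with no overlap. It was 8.96 RPKM in FTO knockdown cells and 14.7 RPKM in the FTO control. Igfbp6 was 13.3% and 9.97% of the total in METTL3 knockdown cells, against 5.79% and 2.49% in METTL3 control cells. Igfbp1 and Igfbp2 had at most 2 reads in any library.

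**Figure D4:**
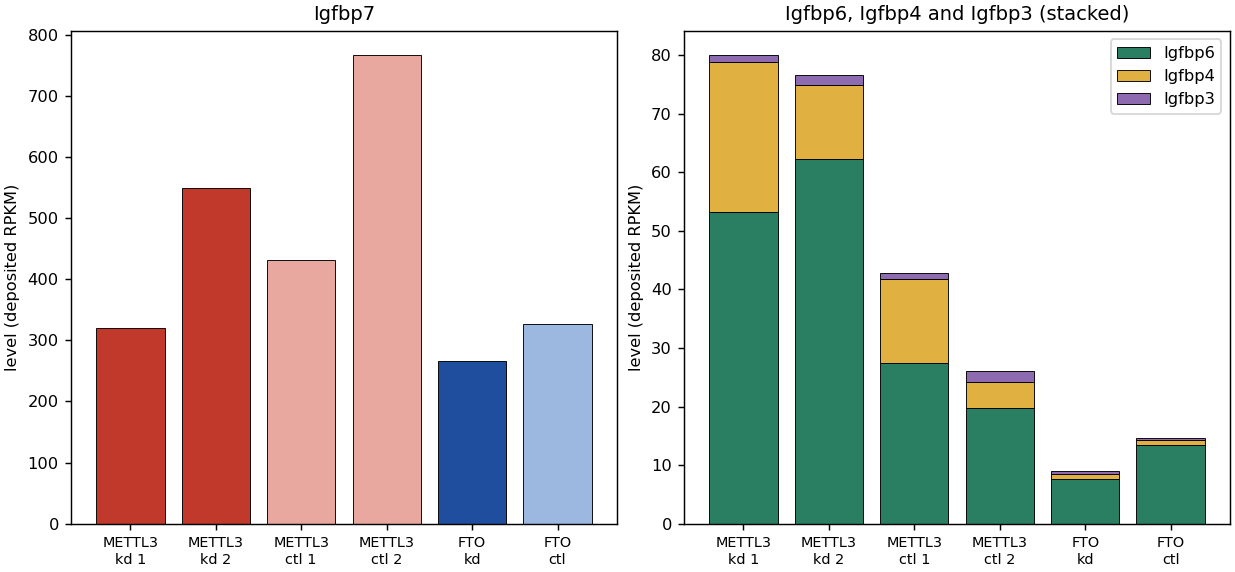
Deposited RPKM (vertical axes from 0) of Igfbp7 (left) and of Igfbp6, Igfbp4 and Igfbp3 stacked (right) in the 6 libraries (kd, knockdown; ctl, control). The stacks reach 80.1 and 76.7 RPKM in METTL3 knockdown cells and 42.9 and 26.1 RPKM in METTL3 control cells, mostly as Igfbp6.

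Between the experiments, levels were scaled separately and read in different modes, so they are set side by side only. Igf1r was at 105 to 106 CPM in the FTO libraries and 26.9 to 30.9 CPM in the METTL3 libraries. Irs1 was at 115.5 to 128.5 CPM in the FTO libraries and 22.95 to 25.95 CPM in the METTL3 libraries. Igfbp4 was the other way, at 4.38 to 5.79 CPM in the FTO libraries and 20.6 to 125 CPM in the METTL3 libraries. The mitochondrial share of counts was 3.90% in FTO knockdown cells, 4.14% in the FTO control and 0.605% to 0.757% in the METTL3 libraries. Fibroblast and pre-adipocyte markers summed to 12180 CPM in FTO knockdown cells, 16200 CPM in the FTO control and 26080 to 28660 CPM in the METTL3 libraries. The part of these in the levels was not tested, and experiment and sequencing mode cannot be told apart.

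Gene models and shared sequence bear on these counts. Reads per RPKM, which is proportional to the length the authors used, was 453 for Insr and 211 for Igf1r in METTL3 control replicate 1, whereas the GENCODE M21 transcripts measure 9355 bases for Insr and 11409 bases for Igf1r. The order of both receptors by RPKM therefore depends on the gene model. For Igf1 the reads per RPKM were 465.5, above those of Insr, whereas its transcript measures 2292 bases. The low place of Igf1 among the members by RPKM, under 1 RPKM, therefore depends on the gene model as well. For Irs2 and Irs1 the reads per RPKM were 189 and 430, whereas the transcripts measure 6323 bases for Irs2 and 9144 bases for Irs1, so the Irs2 to Irs1 ratios depend on it too. Among the 45 pairs of member transcripts the longest shared run was 43 bases, between Insr and Igf1r, shorter than a read of 101 bp. Exons of Polr2b, on the opposite strand, cover 7.03% of the Igfbp7 exon bases, and those of Gm9747 cover 30.9% of the Irs1 exon bases, with Gm9747 listed at 0 reads in every library. Whether reads were counted by strand is not given in the sources used here.

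The wider pathway, 71 further genes from ligands to glucose transport, was counted in the same way. Of the 60 tested in the METTL3 comparison, 0 passed by edgeR (0.0146% of all genes), and 11 were at an unadjusted p under 0.05, 5 higher and 6 lower, against 11.5% of all genes. DESeq2 called 3 (1.78% of all genes), limma voom 0 and edgeR with low genes kept 3 (0.520%). Their median log2 fold change was -0.04, and 28 of the 60 did not overlap between groups, against 43.0% of all genes. In the FTO comparison 2 of 56 genes were past 2-fold, both higher, against 0.376% of all genes higher by that much, and the median log2 ratio was -0.07.

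Of the 7 listed proteases of binding proteins and their inhibitors, 6 were tested in the METTL3 comparison, with a median log2 fold change of -0.09. Of these, edgeR called 0 (0.0146% of all genes) and DESeq2 1 (1.78%). At an unadjusted edgeR p under 0.05 were 4 of the 6, 2 higher and 2 lower, against 11.5% of all genes. The differences of Ctsd (-0.02, SE 0.25) and Pappa2 (-0.15, SE 0.41) were below their SE. Adam12, a metalloprotease that can cleave IGF-binding proteins, was at 46.0 and 38.3 CPM in METTL3 knockdown cells and 93.0 and 107 CPM in METTL3 control cells (log2 fold change -1.24, SE 0.14, edgeR adjusted p = 0.168). DESeq2 called it lower (adjusted p = 2.9e-09), and it was at 42.0 CPM in FTO knockdown cells and 41.8 CPM in the FTO control. Pappa, the protease that cleaves IGFBP4 and so frees IGFs, was at 7.63 and 6.22 CPM in METTL3 knockdown cells and 10.6 and 14.7 CPM in METTL3 control cells (-0.87, SE 0.22, edgeR adjusted p = 0.312; DESeq2 adjusted p = 0.0523). It was also lower in FTO knockdown cells, at 44.6 CPM, against 64.6 CPM in the FTO control. Stc1, a secreted glycoprotein of the stanniocalcin family, which inhibits PAPPA, was at 6.98 and 5.10 CPM in METTL3 knockdown cells and 3.86 and 2.40 CPM in METTL3 control cells (0.95, SE 0.30, edgeR adjusted p = 0.372). In FTO knockdown cells it had 24.9 CPM, against 9.99 CPM in the FTO control, a ratio of 2.50 (2.17 to 2.87). Htra1, a serine protease, was at 8.48 and 9.58 CPM in METTL3 knockdown cells and 6.12 and 5.46 CPM in METTL3 control cells (0.64, SE 0.16, edgeR adjusted p = 0.312).

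Inside the cell, Trib3 and Pik3r3 were among the largest differences of both comparisons. Trib3, a pseudokinase that binds AKT, was at 182.5 and 182 CPM in METTL3 knockdown cells and 96.0 and 77.05 CPM in METTL3 control cells. Its log2 fold change of 1.07 (SE 0.13, edgeR adjusted p = 0.187) was called by DESeq2 (adjusted p = 2.54e-07). In FTO knockdown cells Trib3 had 57.0 CPM, against 27.8 CPM in the FTO control, a ratio of 2.05 (1.89 to 2.24). Pik3r3, a regulatory subunit of PI3K, was at 36.5 and 32.3 CPM in METTL3 knockdown cells and 52.7 and 62.03 CPM in METTL3 control cells (-0.74, SE 0.13, edgeR adjusted p = 0.229; DESeq2 adjusted p = 0.00366). In FTO knockdown cells it had 20.9 CPM, against 35.8 CPM in the FTO control, a ratio of 0.586 (0.529 to 0.648). Grb10, an adaptor that restrains both receptors, had the largest METTL3 fold change of the list (1.56, SE 0.42, edgeR adjusted p = 0.338) on levels of only 0.412 and 0.358 CPM in METTL3 knockdown cells and 0.116 and 0.142 CPM in METTL3 control cells. Eif4ebp1, the translation repressor that mTORC1 inactivates, had a log2 fold change of 0.41 (SE 0.09, edgeR adjusted p = 0.284).

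Further genes with large differences in the FTO comparison were lower in FTO knockdown cells. They were the FOXO factors Foxo4 (log2 ratio -0.42) and Foxo3 (-0.39), the receptor adaptor Grb14 (-0.39) and the S6 kinase gene Rps6kb2 (-0.36). Igf2r stood at 360.4 CPM in FTO knockdown cells and 397 CPM in the FTO control (-0.14), and Igf2 had 5 reads in FTO knockdown cells and 15 in the FTO control, too few to compare.

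**Figure D5:**
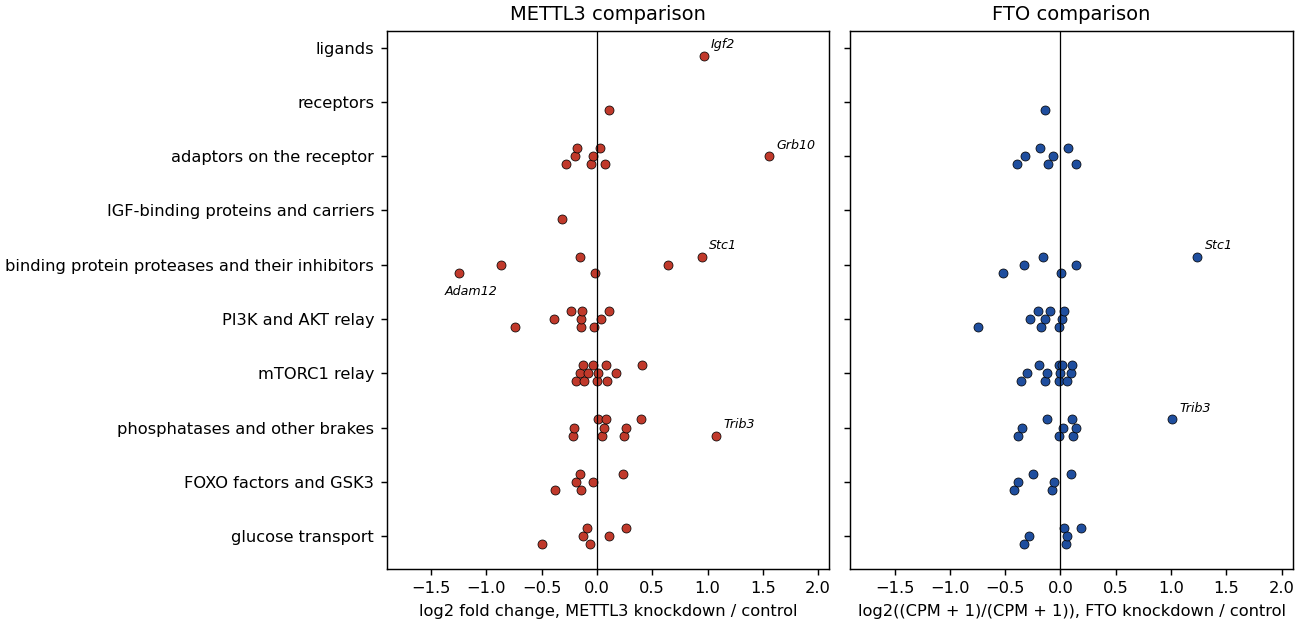
Log2 difference of the wider pathway genes by role (rows), METTL3 knockdown over control (left, edgeR fit) and FTO knockdown over control (right, CPM plus 1), 1 point per gene that passed the count filter. Trib3 lies at 1.07 (METTL3) and 1.01 (FTO), Stc1 at 0.95 and 1.24; most other genes lie near 0, and 0 passed the edgeR test.

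For the 3 members that varied most within the experiments, the genes of nearest pattern were found by the root mean square difference of log2(CPM + 1), centred within each experiment, over 6 libraries and 12041 other genes. Igfbp4 was nearest to Pi16 (0.139), Tnr (0.157) and Spib (0.264). Pi16 was at 32.9 and 18.4 CPM in METTL3 knockdown cells and 15.6 and 5.34 CPM in METTL3 control cells, so that, unlike those of Igfbp4, its groups did not overlap; in both genes the library numbered 2 was the lower one of each group. Igfbp6 was nearest to Cd74 (0.143), Adamtsl4 (0.145) and Aqp1 (0.155). Aqp1, a water channel, was at 733 and 829 CPM in METTL3 knockdown cells and 396 and 369 CPM in METTL3 control cells, and at 354 CPM in FTO knockdown cells against 586 CPM in the FTO control. Igf1 was nearest to H2-Q4 (0.0659), Dcxr (0.0836) and Kctd7 (0.0863), each lower in FTO knockdown cells, as with Dcxr at 15.2 CPM against 42.4 CPM in the FTO control. The genes of nearest pattern were picked on these same 6 libraries, so directions shared with a member follow from the choice.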

How the data were processed

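For each library, 1 table was deposited with, per its header, counts of reads and RPKM by Ensembl gene; libraries were poly(A)-selected and rRNA-depleted, per the labels' protocols. The counts are whole numbers that were not normalised; the RPKM values were computed by the authors, with lengths and read totals not given in the sources used here. The submitters' processing notes name mm10, TopHat2 2.0.9 and bedtools, with no roles given. Symbols came from GENCODE M21.

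The METTL3 groups were compared on the counts with edgeR 4.0.16 in R 4.3.3 (TMM, filterByExpr, robust quasi-likelihood fit without a replicate block, two-sided, Benjamini-Hochberg over all genes, called under 0.05). Standard errors were derived from each gene's fold change and its F statistic. Alternatives used DESeq2 1.42.0, limma voom 3.58.1, other scalings and filters, and fits without 1 library. Replicates differed by more than sampling noise (chi-square per gene 50.1 for METTL3 knockdown and 49.3 for METTL3 control cells). For FTO, CPM were TMM-scaled over both libraries, with a pseudocount of 1 and at least 50 reads; counting intervals cover counting error only.

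Of the wider list, named genes were those called, the 10 with the largest absolute METTL3 log2 fold change, the 10 with the largest absolute FTO ratio, and Igf2, Igf2r and Igfbp2. Some genes that this rule names are not reported here. Members and lists were chosen with earlier results of these data known.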

Additional observations from a re-analysis of the deposited data

How the results depend on the processing

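By edgeR 2 genes were called in the METTL3 comparison, and 111 without a low-count filter, 239 by DESeq2 and 3706 with the replicate number as a block. Leaving out 1 library gave 2 to 70 genes: 70 without METTL3 knockdown replicate 1, 7 without METTL3 knockdown replicate 2, 3 without METTL3 control replicate 1 and 2 without METTL3 control replicate 2. Members called went from 0 to 1 (Igfbp6) without a low-count filter and by DESeq2. With the replicate block 5 of the 9 members tested were called (Insr, Igf1, Irs2, Igfbp6 and Igfbp7), where 3706 of all 13697 genes were called. In the edgeR fit with the block, adjusted p was 1.52e-08 for Igfbp7, 1.5e-09 for Irs2, 0.0301 for Insr, 0.0426 for Igf1 and 0.0484 for Igfbp6. The labels do not say what the replicate number marks. Differences between replicates 2 and 1 correlated between the groups across genes (r = 0.741 over 13697 genes, which are not independent). That correlation is a hint from the data and not from the design. The members' median log2 fold change of -0.12 ran from -0.172 to 0.0138 with 1 library left out. Igfbp3 turned from -0.0058 to 0.0016 with DESeq2 size factors, 0.00091 with at least 50 reads in 2 libraries, 0.0010 by DESeq2, 0.024 by limma voom and 0.0044 with the block, and ran from -0.33 to 0.40 with 1 library left out. Igfbp7 ran from -0.872 to 0.0138, turning positive without METTL3 control replicate 2. The other 7 tested members kept their METTL3 direction in all alternatives run; in the FTO comparison Insr moved across 0 (-0.0201, against 0.0025 with library totals and 0.0082 on RPKM plus 1). In the FTO comparison 128 genes were past 2-fold, against 60 on RPKM plus 1, where 0 members were, and 200 with a pseudocount of 0.25 CPM. The cause of these changes was not tested.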
